A study of Rattus norvegicus with 23 samples.

Results

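The genes described are 10 that serve serine and asparagine synthesis and the response to activating transcription factor 4 (ATF4): Phgdh, Psat1, Psph, Asns, Atf4, Atf5, Ddit3, Trib3, Chac1 and Sesn2. They are 10 of the 14217 genes named by at least 1 probe set alone on the rat array. Together they were named alone by 13 probe sets, 3 of them for Trib3, 2 for Sesn2 and 1 for each of the others. Where a gene had several, the one of highest mean signal over the 23 livers stood for it. The other 2 Trib3 probe sets and the other Sesn2 probe set are given beside it.

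Cells make serine from the glycolytic intermediate 3-phosphoglycerate through PHGDH, PSAT1 and PSPH, and serine feeds glycine, one-carbon units and, through cysteine, glutathione. ASNS makes asparagine from aspartate and glutamine. When a kinase such as GCN2 (uncharged tRNA) or PERK (unfolded protein in the endoplasmic reticulum) phosphorylates eIF2 alpha, general translation falls while the ATF4 message is translated more, and ATF4 then raises transcription of amino acid synthesis and stress genes. Much of the control of ATF4 is therefore on its translation, which an RNA measurement does not show. In liver, this response is known from amino acid limitation, mitochondrial stress and endoplasmic reticulum stress.

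All samples were the left lateral liver lobe of male Sprague Dawley rats aged 6 to 8 weeks, dosed by oral gavage for 5 days and killed 24 h after the last dose after an overnight fast. Alpha-naphthylisothiocyanate (ANIT, 100 mg/kg), a toxicant of bile ducts, was compared with corn oil at 5 ml/kg. Methylenedianiline (MDA, 100 mg/kg), also a bile duct toxicant, was compared with 35% ethanol at 2 ml/kg. Acetaminophen (APAP, 1000 mg/kg), an analgesic, was compared with corn oil at 2 ml/kg. The anti-inflammatory drug diclofenac (DCLF, 10 mg/kg) was compared with water at 10 ml/kg. The APAP, corn oil 2 ml/kg, DCLF and water rats belonged to 1 in-life study, and ANIT and MDA each had a study of their own. Each group held 3 rats except water, which held 2, and each sample was the tissue of 1 rat. The titles of the 3 corn oil 5 ml/kg samples begin with different animal numbers and end in the same one, so their count of 3 rats rests on the leading numbers.

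By mean signal over the 23 livers, the liver transcripts Alb, Ttr and Apoa1 were brighter than at least 99.8% of probe sets. Their log2 values on single arrays were 13.08 to 15.99, and sample medians ran from 8.95 to 9.02. On 3 arrays the highest value of any probe set was only 14.57 to 14.97, against 15.86 to 15.99 on the other 20. These were ANIT replicates 1 and 2 and corn oil 5 ml/kg replicate 2. Results without them are given below for Phgdh, Psat1, Asns, Atf5 and Ddit3 under ANIT. They are also given for the difference of APAP and ANIT effects in the genes called there. For Psph, Atf4, Trib3, Chac1 and Sesn2 the ANIT log2 changes without them were -0.05, 0.18, -0.27, 0.08 and -0.42. ANIT results of the related gene lists and cell markers are given only with these arrays included. All values below are log2 signals from robust multichip averaging (RMA), on which a difference of 1 is a doubling. Arrays measure RNA of whole tissue, so less of a transcript per cell and fewer cells that carry it cannot be told apart. A gene was called when its limma p, adjusted over all 31042 probe sets, was under 0.05 and its change was over 1.5-fold. Errors of changes are standard errors, and those of group means are standard deviations. Where groups are said not to overlap, this is a description of the livers. Groups this small can separate by chance, and the share of all probe sets that did so was not counted.

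Stretches of promoter are shown first because the enzymes Asns, Phgdh and Psat1 moved together and Trib3 and Chac1, which are commonly grouped with them, did not follow the same pattern. They come from RefSeq (assembly GRCr8), which held a promoter for all 10 genes, from 250 bases before the annotated start to 50 after it. The C/EBP-ATF response element, to which ATF4 binds with a C/EBP partner, has the core TGATGNAA. Searched on both strands, this core was in 1048 of 27457 promoters of the same length (3.82%) and in those of Trib3 and Chac1 among the 10. The 2 windows below, on the strand of each gene, have the match in capitals, where it reads as the reverse complement of the core. The first base of the match lay 21 bases before the start of Trib3 and 167 bases before that of Chac1.
Trib3, chr3:161275517-161275584, minus strand: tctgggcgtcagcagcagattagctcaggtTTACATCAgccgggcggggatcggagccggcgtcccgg
Chac1, chr3:126795934-126796001, plus strand: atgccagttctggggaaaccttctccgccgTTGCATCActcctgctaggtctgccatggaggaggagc

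The core was not in the 300 bases of the other 8 genes. The 100 bases before the annotated start are shown for the 3 enzymes that were called under APAP, all on the minus strand. For Asns, Psat1 and, among the genes not shown, Atf5, the start used by the table lies inside the span of the gene, so another start may exist upstream. The absence of these letters from a window says nothing of the factor.
Asns, chr4:36769416-36769515: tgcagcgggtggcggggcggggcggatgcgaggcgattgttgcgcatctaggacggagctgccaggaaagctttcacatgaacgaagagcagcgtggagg
Phgdh, chr2:188624790-188624889: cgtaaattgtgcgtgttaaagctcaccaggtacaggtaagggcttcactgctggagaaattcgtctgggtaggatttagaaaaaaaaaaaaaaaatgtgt
Psat1, chr1:222645409-222645508: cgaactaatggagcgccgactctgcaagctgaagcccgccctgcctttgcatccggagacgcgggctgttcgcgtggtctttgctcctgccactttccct

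The largest changes of these genes were seen with APAP. Phgdh, Psat1 and Asns rose 4.32- to 6.06-fold against corn oil, while the other 7 genes, among them the stress factor Ddit3, were not called. In this comparison 0.139% of probe sets were called higher and 0.0709% lower, against 3 of 10 genes higher and 0 of 10 lower. The 10 genes were chosen with earlier results of these data known. This contrast with all probe sets, and the like ones below for other comparisons, are therefore descriptions and no tests. The 3 enzymes ranked 3, 5 and 6 by size of increase among the 31042 probe sets (Asns, Phgdh, Psat1). The median change of the 10 genes was 0.53, against 0.018 over all genes.

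Phgdh encodes the dehydrogenase that commits 3-phosphoglycerate to serine synthesis. Its signal was 11.99, 11.37 and 11.68 in APAP livers, against 9.22, 8.90 and 9.30 in corn oil 2 ml/kg livers. The lowest APAP liver was more than 4-fold above the highest corn oil liver, and the change was 2.54 ± 0.165 (5.83-fold, adjusted p = 0.00156). In MDA livers the signal was 11.12, 11.67 and 11.05, against 10.06, 10.17 and 9.30 in ethanol livers. These groups did not overlap either, and Phgdh rose by 1.44 ± 0.247 (2.71-fold, adjusted p = 0.0077). ANIT livers had 11.14, 9.93 and 10.05, against 9.39, 9.18 and 8.40 in corn oil 5 ml/kg livers. Every ANIT liver lay above every corn oil liver, yet 1 ANIT liver stood more than 1 log2 unit above the rest of its group. The change of 1.38 ± 0.358 missed the threshold (adjusted p = 0.0519, 95% interval 0.55 to 2.21). It was called in 5 alternatives, at adjusted p of 0.00401 with all 23 samples in 1 model and 0.033 to 0.0498 in the other 4, and not without the 3 arrays of low top signal (1.15, adjusted p = 0.13). DCLF livers had 8.65, 9.13 and 8.53, against 8.85 and 9.39 in water livers, and these overlapped (change -0.35, 95% interval -0.85 to 0.15).

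Psat1 encodes the aminotransferase of the next step. Its signal was 11.15, 11.01 and 11.21 in APAP livers, against 9.05, 8.62 and 9.36 in corn oil 2 ml/kg livers. APAP livers were closely grouped (SD 0.103) and Psat1 rose by 2.11 ± 0.171 (4.32-fold, adjusted p = 0.00346). ANIT livers had 9.74, 9.51 and 9.48, against 8.82, 8.70 and 8.39 in corn oil 5 ml/kg livers. The increase was smaller but just as free of overlap, at 0.94 ± 0.129 (1.92-fold, adjusted p = 0.00458). MDA livers had 10.20, 11.30 and 10.32, against 9.87, 10.05 and 8.91 in ethanol livers. All MDA livers were above all ethanol livers, but both groups were wide (SD 0.604 and 0.613), and the change of 1.0 ± 0.354 was not called (adjusted p = 0.113, 95% interval 0.18 to 1.81), though it was with all 23 samples in 1 model (adjusted p = 0.0141). DCLF livers had 8.55, 9.06 and 8.57, against 8.75 and 9.14 in water livers (change -0.22, 95% interval -0.65 to 0.21).

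Psph encodes the phosphatase that releases free serine and did not share the pattern of the enzymes before it. APAP livers had 9.97, 10 and 10.39, against 9.68, 9.77 and 9.18 in corn oil 2 ml/kg livers. They lay above the corn oil livers without overlap, but the change of 0.57 ± 0.175 was not called (adjusted p = 0.326). MDA livers had 8.94, 9.90 and 9.58, against 9.78, 9.98 and 10.24 in ethanol livers (change -0.53, adjusted p = 0.195). ANIT livers had 9.34, 9.36 and 9.29, against 9.36, 9.46 and 9.33 in corn oil 5 ml/kg livers. The ANIT change of -0.05 had a narrow 95% interval of -0.22 to 0.12. DCLF livers had 9.59, 9.84 and 9.65, against 9.58 and 10.07 in water livers (change interval -0.49 to 0.23).

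Asns, the asparagine synthetase, was called against vehicle under all of APAP, MDA and ANIT. Its signal was 11.60, 10.93 and 11.74 in APAP livers, against 8.59, 8.87 and 9.01 in corn oil 2 ml/kg livers. The groups were almost 2 log2 units apart at their closest, and Asns rose by 2.60 ± 0.209 (6.06-fold, adjusted p = 0.00346). MDA livers had 10.78, 11.09 and 10.83, against 9.39, 9.70 and 9.11 in ethanol livers. The increase was 1.5 ± 0.154 (2.83-fold, adjusted p = 0.000944). ANIT livers had 10.44, 9.70 and 9.77, against 9.27, 8.97 and 8.43 in corn oil 5 ml/kg livers. This was the smallest of the 3 increases, at 1.08 ± 0.254 (2.11-fold, adjusted p = 0.0369). DCLF livers had 8.37, 8.46 and 8.12, against 7.89 and 9.48 in water livers. The 2 water livers were the lowest and the highest of those 5, so the DCLF change of -0.37 had a wide 95% interval of -1.31 to 0.57.

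**Figure D1:**
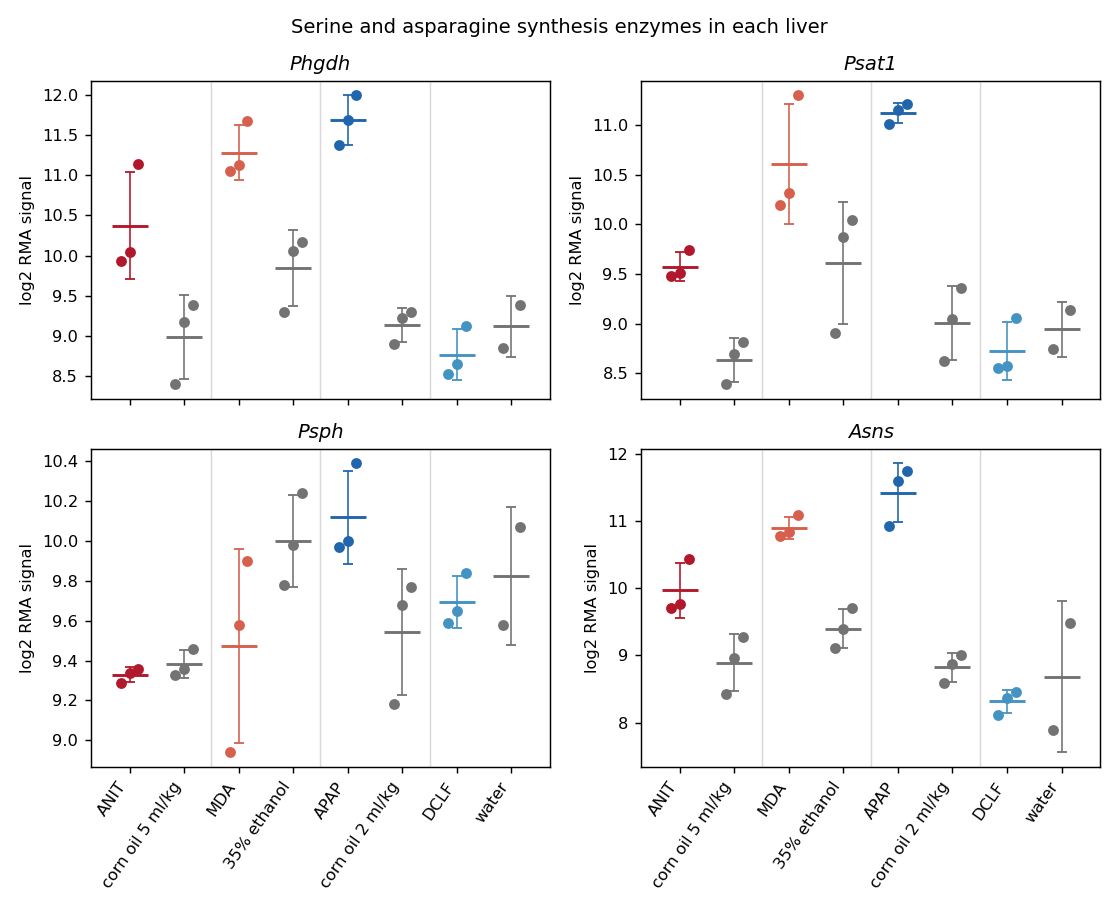
Log2 RMA signal (y axis) of Phgdh, Psat1, Psph and Asns in each liver (points), with group means (bars) and SD (whiskers), n = 3 per group and 2 for water. Each compound stands left of its vehicle, and Phgdh, Psat1 and Asns have their highest group means in APAP livers and do not overlap with vehicle in APAP, MDA or ANIT livers.

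By group mean, Asns ran from 11.42 ± 0.435 in APAP through 10.90 ± 0.162 in MDA, 9.97 ± 0.409 in ANIT, 9.40 ± 0.292 in ethanol, 8.89 ± 0.423 in corn oil 5 ml/kg, 8.82 ± 0.215 in corn oil 2 ml/kg and 8.68 ± 1.12 in water to 8.32 ± 0.175 in DCLF livers. MDA and ANIT livers were the only neighbours in that order whose ranges stood clearly apart. Vehicle means were not equal, and differences between vehicles of separate studies were not tested. Phgdh averaged 9.84 ± 0.474 in ethanol livers, 9.14 ± 0.213 in corn oil 2 ml/kg livers, 9.12 ± 0.378 in water livers and 8.99 ± 0.521 in corn oil 5 ml/kg livers, where vehicle and study cannot be told apart. In 3 of the 4 vehicle groups the 3 enzymes were low in the same rat: ethanol replicate 3, corn oil 5 ml/kg replicate 3 and water replicate 1 had the lowest Phgdh, Psat1 and Asns of their groups, though in corn oil 2 ml/kg livers the lowest Asns was in another rat than the lowest Phgdh and Psat1. Corn oil 2 ml/kg against water, a comparison with no toxicant, called 0% of probe sets and 0 of the 10 genes, with 2107 probe sets and 1 of the 10 genes (Chac1) under an unadjusted limma p of 0.05.

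Under MDA 3.24% of probe sets were called higher and 3.78% lower, against 2 of 10 genes higher (Asns, Phgdh) and 0 lower. Under ANIT 2.63% were called higher and 2.75% lower, against 2 of 10 higher (Psat1, Asns) and 1 lower (Atf5). The median change of the 10 was 0.01 under MDA and 0.03 under ANIT, against 0.002 and -0.016 over all genes. Without the 3 arrays of low top signal, which leaves 1 ANIT liver that is assumed to vary like the rest, the ANIT changes were 0.87 for Psat1 (adjusted p = 0.0543) and 0.91 for Asns (adjusted p = 0.15), and neither was called. Leaving out ANIT replicate 1, corn oil 5 ml/kg replicate 2 or corn oil 5 ml/kg replicate 3 also ended the call of Asns (changes of 0.84, 1.12 and 0.85). No single liver ended the call of Asns when left out of the APAP or MDA comparison. The methods' t-test did not call Asns under APAP (adjusted p = 0.318) or MDA (adjusted p = 0.0579).

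Atf4, the transcription factor itself, was measured at high signal and varied little. APAP livers had 12.50, 12.37 and 12.21, against 11.87, 11.79 and 11.98 in corn oil 2 ml/kg livers. These groups did not overlap, but the change of 0.48 ± 0.0948 (1.40-fold) was not called (adjusted p = 0.131, 95% interval 0.26 to 0.70). ANIT livers had 12.32, 12.11 and 12.20, against 12.13, 12.09 and 11.91 in corn oil 5 ml/kg livers (95% interval of the change -0.05 to 0.38). MDA livers had 12.21, 12.00 and 12.13, against 11.88, 12.06 and 12.22 in ethanol livers (-0.20 to 0.32). DCLF livers had 11.72, 12.05 and 11.77, against 11.83 and 11.99 in water livers (-0.35 to 0.21). All 3 of these intervals included 0.

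Atf5, a related factor that is abundant in liver and is tied to the mitochondrial stress response, went the other way under ANIT. ANIT livers had 12.74, 13.07 and 12.95, against 13.71, 13.49 and 13.40 in corn oil 5 ml/kg livers, with no overlap. Atf5 fell by 0.62 ± 0.117 on the log2 scale (1.53-fold lower, adjusted p = 0.0167), just past the fold threshold. After quantile normalization it was -0.54 (adjusted p = 0.0288) and under the fold threshold. Without the 3 arrays of low top signal it was -0.60 (adjusted p = 0.0804), and it also lost its call without corn oil 5 ml/kg replicate 1, corn oil 5 ml/kg replicate 2 or ANIT replicate 1 (-0.53, -0.64 and -0.53). MDA livers had 13.29, 13.29 and 12.96, against 13.44, 13.55 and 13.63 in ethanol livers, again without overlap but not called (-0.36, adjusted p = 0.0813). APAP livers had 13.62, 13.56 and 13.65, against 13.35, 13.29 and 13.55 in corn oil 2 ml/kg livers (0.21, adjusted p = 0.471). DCLF livers had 13.28, 13.49 and 13.22, against 13.39 and 13.69 in water livers (-0.21, adjusted p = 0.517).

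Ddit3 encodes CHOP, a factor raised in prolonged endoplasmic reticulum stress, and was called in none of the 4 comparisons. APAP livers had 9.56, 9.49 and 9.65, against 9.60, 9.56 and 9.38 in corn oil 2 ml/kg livers. The 95% interval of -0.15 to 0.26 leaves out any change of 1.5-fold. MDA livers had 9.28, 9.45 and 9.49, against 9.40, 9.42 and 9.52 in ethanol livers (interval -0.25 to 0.17). ANIT livers had 8.95, 9.49 and 8.67, against 9.55, 9.52 and 9.50 in corn oil 5 ml/kg livers. Here 2 ANIT livers were low and 1 was close to vehicle, and the change was -0.48 ± 0.19 (adjusted p = 0.165). Without the 3 arrays of low top signal the change was -0.85 (adjusted p = 0.0197), which rests on 1 ANIT liver. DCLF livers had 9.26, 9.53 and 9.21, against 9.57 and 9.67 in water livers (-0.29, adjusted p = 0.376).

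Trib3, a pseudokinase that binds ATF4 and dampens its activity, was highest in APAP livers. APAP livers had 11.87, 11.75 and 11.38, against 9.95, 10.10 and 11.06 in corn oil 2 ml/kg livers. The groups did not overlap, but corn oil replicate 3 was about 1 log2 unit above the others, and the change of 1.3 ± 0.275 (2.46-fold) was not called (adjusted p = 0.159). Without that liver it was 1.64 (adjusted p = 0.00833), and with all 23 samples in 1 model 1.3 (adjusted p = 0.014). MDA livers had 10.08, 9.99 and 10.13, against 10.62, 10.01 and 10.50 in ethanol livers (-0.31, adjusted p = 0.262). ANIT livers had 10.35, 10.28 and 10.47, against 10.97, 10.56 and 10.50 in corn oil 5 ml/kg livers (-0.31, adjusted p = 0.215). Both compounds thus had a mean below vehicle in Trib3 and were called higher in Asns. DCLF livers had 10.15, 10.84 and 9.96, against 9.89 and 10.44 in water livers (0.15, adjusted p = 0.847). The other 2 Trib3 probe sets changed by 1.56 ± 0.377 and 1.24 ± 0.332 under APAP (adjusted p = 0.215 and 0.271), and both read the same corn oil liver high, at 10.63 and 10.93.

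Chac1, an enzyme that degrades glutathione and is a known target of ATF4, was not called under any compound. APAP livers had 10.40, 10.01 and 10.29, against 9.93, 9.93 and 10.21 in corn oil 2 ml/kg livers. MDA livers had 10.60, 10.29 and 10.38, against 10.33, 9.92 and 10.42 in ethanol livers. ANIT livers had 9.95, 10.22 and 9.97, against 9.93, 10.01 and 9.84 in corn oil 5 ml/kg livers. The groups overlapped in each, and the 95% intervals were -0.07 to 0.49 for APAP, -0.13 to 0.54 for MDA and -0.11 to 0.35 for ANIT. DCLF livers had 10.19, 10.89 and 9.94, against 10.37 and 10.31 in water livers, which DCLF livers bracketed (interval -0.59 to 0.59).

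Sesn2 encodes sestrin 2, a leucine sensor that restrains mTORC1 and is induced by ATF4 in many cells, but here its mean was below vehicle under ANIT, MDA and APAP. MDA livers had 11.30, 11.06 and 10.90, against 11.76, 11.58 and 11.60 in ethanol livers. The groups did not overlap and the adjusted p was 0.0179, but the change of -0.56 ± 0.119 (1.48-fold lower) was just under the fold threshold, so it was not called. ANIT livers had 11.06, 10.95 and 10.97, against 11.27, 11.21 and 11.51 in corn oil 5 ml/kg livers (-0.34, adjusted p = 0.0744). APAP livers had 11.19, 11.19 and 11.50, against 11.58, 11.67 and 11.40 in corn oil 2 ml/kg livers (-0.26, adjusted p = 0.487). DCLF livers had 11.75, 11.73 and 11.64, against 11.77 and 11.51 in water livers, and overlapped. The other Sesn2 probe set changed by -0.37 ± 0.113 under MDA (adjusted p = 0.0701), -0.17 under ANIT and -0.15 under APAP, and none of these was called.

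**Figure D2:**
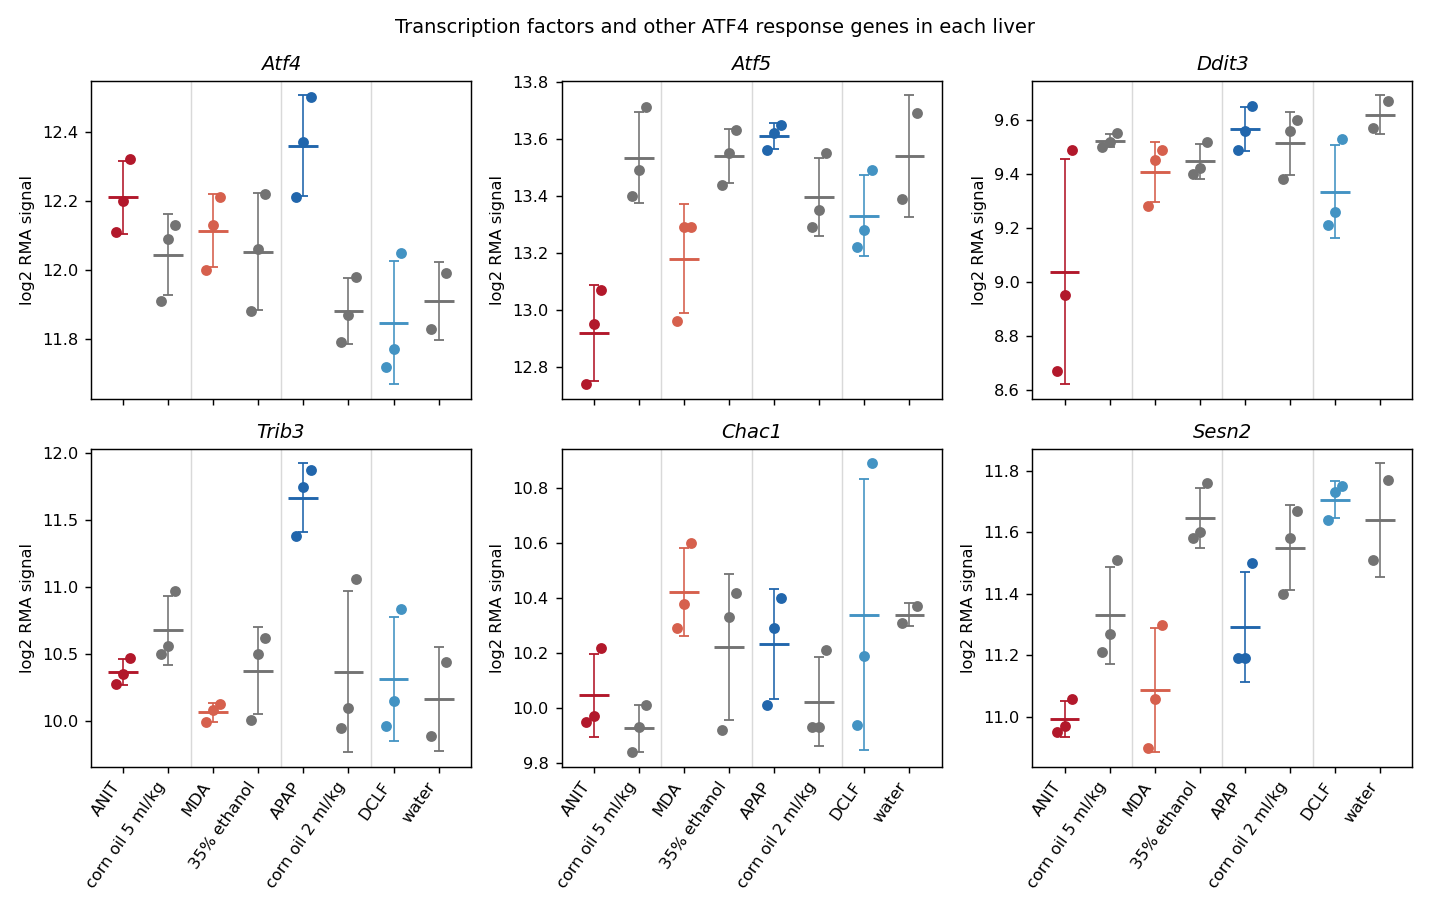
Log2 RMA signal (y axis, its range differing between panels) of Atf4, Atf5, Ddit3, Trib3, Chac1 and Sesn2 in each liver (points), with group means (bars) and SD (whiskers). Each compound stands left of its vehicle: Trib3 has its highest mean in APAP livers, Atf5 its lowest in ANIT livers, and Chac1 overlaps with vehicle under every compound.

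Under DCLF 0% of probe sets were called by limma and 0 of the 10 genes, with 3885 probe sets and 1 of the 10 genes (Ddit3) under an unadjusted p of 0.05. The changes ran from -0.37 to 0.15, with a median of -0.17 against -0.033 over all genes.

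**Figure D3:**
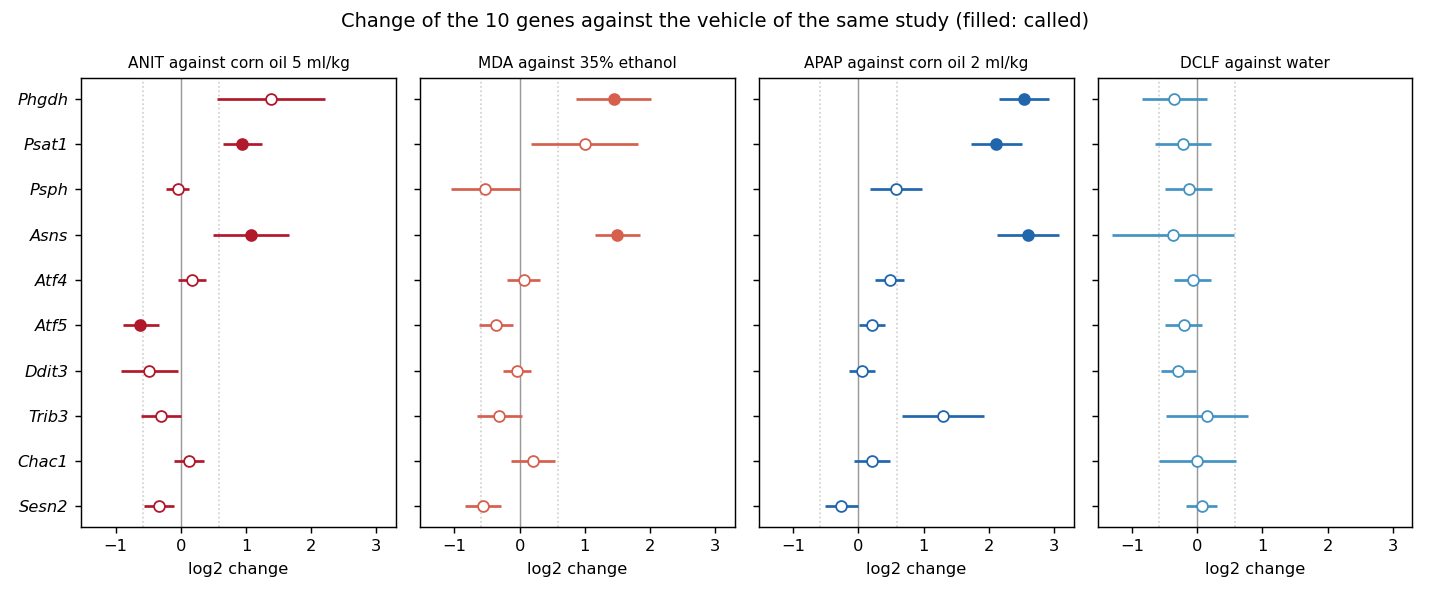
Log2 change (x axis, with 95% interval) of each of the 10 genes against the vehicle of its study, from limma, in panels for ANIT, MDA, APAP and DCLF. Filled points are called and dotted lines mark 1.5-fold; the 3 filled points under APAP are Phgdh, Psat1 and Asns, and no point is filled under DCLF.

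Whether the compounds differed was tested on the differences of their effects, each effect taken against its own vehicle. APAP minus DCLF, within 1 study, called 0.0709% of probe sets and 2 of the 10 genes. Phgdh responded more to APAP by 2.89 ± 0.298 (adjusted p = 0.00333) and Psat1 by 2.33 ± 0.281 (adjusted p = 0.0125). For Asns the difference of 2.97 ± 0.497 missed the threshold (adjusted p = 0.0709, 95% interval 1.88 to 4.06). It was called without water replicate 1, the low one of the pair (3.76, adjusted p = 0.00443), with all 23 samples in 1 model (adjusted p = 0.00586) and without the dimmest 25% of probe sets (adjusted p = 0.0495). The Psat1 difference lost its call without water replicate 2 (2.14, adjusted p = 0.119) or without APAP replicate 1 (2.32, adjusted p = 0.0598).

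ANIT minus MDA called 1.16% of probe sets and none of the 10 genes by limma. Under an unadjusted limma p of 0.05 were 3551 of 31042 probe sets and 0 of the 10 genes. With so few genes, this count of 0 does not set them apart from the rest. The differences ran from -0.44 to 0.48. The 95% interval for Phgdh was -1.12 to 0.99 and that for Asns -1.13 to 0.28. A difference of 2-fold between ANIT and MDA in these enzymes therefore lies within the intervals. Ddit3 was called lower without ANIT replicate 2 (-0.67, adjusted p = 0.0479). Without the 3 arrays of low top signal, which leaves only ANIT replicate 3, the Ddit3 difference was -0.81.

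APAP minus ANIT and APAP minus MDA were added after the values had been seen, and they compare across studies. APAP minus ANIT called 4.07% of probe sets and 4 of the 10 genes, all higher: Atf5 by 0.82 ± 0.15 (adjusted p = 0.00816), Psat1 by 1.17 ± 0.233 (adjusted p = 0.0132), Trib3 by 1.61 ± 0.34 (adjusted p = 0.0182) and Asns by 1.52 ± 0.366 (adjusted p = 0.0322). APAP minus MDA called 5.09% and 2 of the 10, Trib3 by 1.61 ± 0.351 (adjusted p = 0.0182) and Asns by 1.10 ± 0.286 (adjusted p = 0.0402). Phgdh was not called against ANIT (1.16, adjusted p = 0.168) or MDA (1.10, adjusted p = 0.0739), nor was Psat1 against MDA (1.12, adjusted p = 0.183). The Asns call was lost without any of 9 of the 12 livers against MDA and any of 8 of the 12 against ANIT. With all 23 samples in 1 model it was lost against MDA (adjusted p = 0.144), as was Psat1 against ANIT (adjusted p = 0.0837), and Psph gained a call against MDA (1.10, adjusted p = 0.0177). The other 2 Trib3 probe sets were called in both, with differences of 2.01 and 1.76 from ANIT (adjusted p = 0.0379 and 0.0441) and of 2.08 and 1.76 from MDA (adjusted p = 0.0192 and 0.0305). Both comparisons use the APAP and corn oil 2 ml/kg livers, so they are not separate evidence. Without the 3 arrays of low top signal, only Atf5 (0.81, adjusted p = 0.0364) of those 4 kept its call against ANIT, with Trib3 at 1.57 (adjusted p = 0.099), Asns at 1.69 (adjusted p = 0.066) and Psat1 at 1.24 (adjusted p = 0.0599), while Ddit3 (0.91, adjusted p = 0.012) gained one.

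Across the 23 livers, each set against the mean of its vehicle, the genes whose pattern was most like that of Asns were Phgdh (Pearson's r = 0.967) and Psat1 (0.938), followed by the efflux transporter Abcc4 (0.917), the ATP synthase inhibitor Atp5if1 (0.915) and mitochondrial Pck2 (0.914). For Phgdh they were Asns (0.967), Psat1 (0.966), Atp5if1 (0.94), the glutathione transferase Gsta3 (0.92) and the quinone reductase Nqo1 (0.904). These correlations are descriptions, since livers of a group share their treatment and their vehicle mean. Of the other members, Atf4 had r = 0.781 with Asns, Trib3 0.504, Chac1 0.395, Psph 0.337, Ddit3 0.091, Atf5 0.067 and Sesn2 -0.674. Gsta3 changed in the same order as Phgdh, with mean log2 changes of 4.35 under APAP, 2.43 under MDA, 2.38 under ANIT and -0.42 under DCLF.

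Related genes outside the 10 were read from lists by function. The counts called in these lists stand against the shares of all probe sets called. Those shares were 2.63% higher and 2.75% lower under ANIT, 3.24% and 3.78% under MDA, and 0.139% and 0.0709% under APAP. With lists this short, 1 or 2 calls do not set a list apart. Among 23 measured serine, glycine and one-carbon genes, 0 were called higher and 1 lower under APAP. That gene was Sds, the serine dehydratase that degrades serine (-0.88, adjusted p = 0.0193). Under ANIT 1 was higher and 3 lower, with Tyms, thymidylate synthase, at 1.03, and Gnmt, which methylates glycine, at -1.25. Agxt, an aminotransferase of glyoxylate, was at -0.80 under ANIT and -0.76 under MDA. Aldh1l2, a mitochondrial folate dehydrogenase, was at -0.59 and -0.73 in the same comparisons, and these 2 were the only calls of the list under MDA. The list medians were 0.01 for APAP, 0.08 for ANIT and -0.16 for MDA.

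Among 31 other ATF4 targets, 2 were called higher and 0 lower under APAP, namely Ddit4, which inhibits mTORC1 (1.13, adjusted p = 0.0263), and Slc6a9, a glycine transporter (0.77, adjusted p = 0.0242). Under MDA 3 were higher and 3 lower, with the stress factor Atf3 at 1.31, the proline synthesis enzyme Aldh18a1 at 0.97, Cbs, which links serine to cysteine, at -1.14, and the liver hormone Fgf21 at -0.75. Under ANIT 1 was higher, Atf3 at 1.25, and 2 lower, Fgf21 at -1.47 and Herpud1, which acts in degradation of endoplasmic reticulum proteins, at -0.62. Atf3 was thus called under ANIT and MDA, and Fgf21, known to be raised by ATF4, was called lower in both. The list medians were 0.17 for APAP, 0.12 for MDA and 0.11 for ANIT.

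Among 15 genes of the eIF2 alpha kinases and their counterparts, 0 were called under APAP. Eif2ak3, which encodes PERK, was at 0.72 under ANIT, and Ppp1r15b, a subunit of the phosphatase that reverses eIF2 alpha phosphorylation, was at -0.62 under ANIT and -0.67 under MDA. None of 19 genes of the IRE1 and ATF6 arms of the unfolded protein response was called in any of the 4 comparisons, with medians of 0.26 for APAP, 0.13 for ANIT, -0.01 for MDA and -0.03 for DCLF. Under ANIT, Sec61b (0.56, adjusted p = 0.00412), Pdia6 (0.49, adjusted p = 0.00681) and Sel1l (-0.41, adjusted p = 0.0152) passed the limma p threshold. They were not called because their changes were under the fold threshold. Of 17 sestrin and mTORC1 genes, Ddit4 under APAP was the only call.

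Of 11 genes of glutathione breakdown and synthesis, 3 were called higher under APAP: the glutamate-cysteine ligase subunits Gclm (1.02, adjusted p = 0.0113) and Gclc (0.96, adjusted p = 0.0387), and glutathione reductase Gsr (0.82, adjusted p = 0.0446). Under ANIT 2 were lower, Chac2 at -0.81 and Gclc at -0.72, and under MDA 2 were lower, Chac2 at -1.41 and Cbs at -1.14. Gclc was therefore called in opposite directions under APAP and ANIT, and the difference of these effects, added after the values had been seen, was 1.68 ± 0.162 (adjusted p = 0.000143). Under DCLF no gene of these lists was called.

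**Figure D4:**
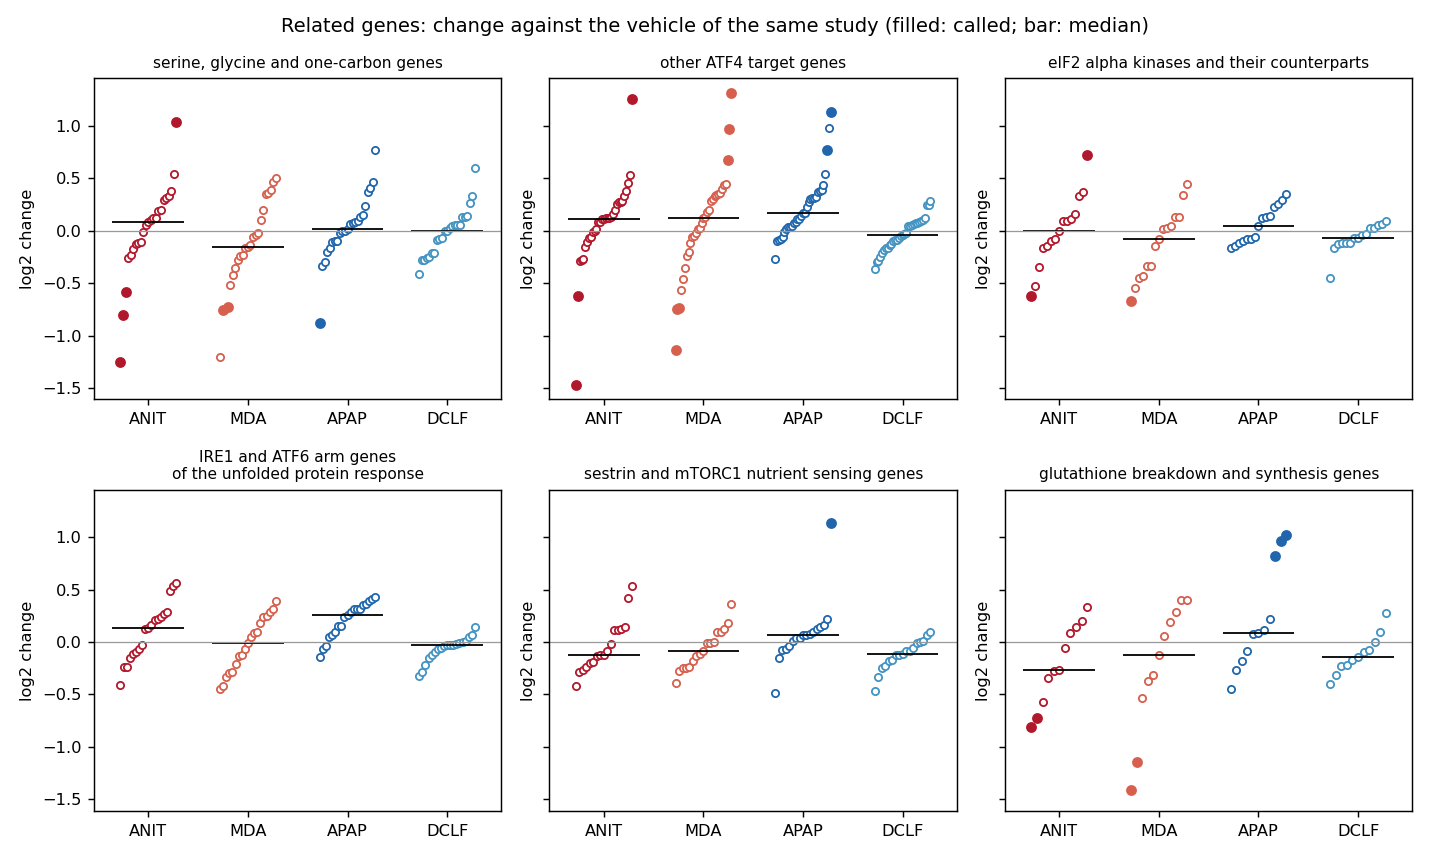
Log2 change (y axis) of each gene of 6 related lists against the vehicle of its study, for ANIT, MDA, APAP and DCLF, with filled points called and black bars at the list median. Calls are few in every list, with the glutathione genes called higher only under APAP, and no call in the IRE1 and ATF6 list.

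Markers of several listed cell types moved under ANIT and MDA. Of 6 neutrophil markers, 0 were called under ANIT (median -0.01) or MDA (median 0.15). Among all probe sets, 2.63% were called higher and 2.75% lower under ANIT, and 3.24% and 3.78% under MDA. Of 10 cycling cell markers, 9 were called higher under ANIT (median 1.78, Ccna2 at 3.19 and Mki67 at 3.15) and 3 under MDA (median 0.67, Mki67 at 1.93). Their mean log2 signal was 9.85 to 10.49 in ANIT livers, against 8.19 to 8.31 in corn oil 5 ml/kg livers, and 8.91 to 9.71 in MDA livers, against 8.52 to 8.69 in ethanol livers. Tyms is in that list as well as in the one-carbon list. Of 9 macrophage markers, 3 were called higher and 1 lower under ANIT and 8 higher under MDA, with a mean signal of 11.54 to 11.80 in MDA livers, against 10.44 to 10.73 in ethanol livers. Of 8 cholangiocyte and ductular cell markers, 2 were called higher under ANIT (Epcam at 2.16) and 4 under MDA (Sox4 at 1.49). Of 10 markers of stellate cells and fibroblasts, 5 were called higher and 1 lower under ANIT, and 6 higher and 1 lower under MDA. Of 9 hepatocyte markers, 3 were called lower under MDA (Cyp2e1 at -1.23, Tat at -0.86) and 1 higher under ANIT (Tat at 0.70), and of 7 endothelial markers 2 were called lower under ANIT (Stab1 at -0.75, Kdr at -0.73). Of 7 lymphocyte markers, 1 was called lower under ANIT (Gzma at -0.80) and 2 higher under MDA (Cd3g at 0.87, Lck at 0.69), and 1 of 9 acinar markers was lower under MDA (Cela1 at -0.73). Under APAP, where 0.139% of probe sets were called higher and 0.0709% lower, 0 markers of any listed cell type were called, a count near that share. The cycling cell mean was 8.28 to 8.29 in APAP livers, against 8.20 to 8.29 in corn oil 2 ml/kg livers. The part of these cells in the ANIT, MDA and APAP changes of the 10 genes was not tested.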

How the data were processed

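Total RNA from 23 livers was labelled with biotin and hybridized to an Affymetrix rat genome array. The values deposited by the authors were log2 signals from RMA in Array Studio. No further scaling was applied. Probe sets were named through the platform annotation and a RefSeq gene table (GRCr8): 20826 of 31042 named 1 gene, 436 several and 9780 none, after 57 Affymetrix controls were left out. Values ran from 4.65 to 15.99, and the number of arrays limits the precision. Where nothing else is said, p-values are two-sided.

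For each comparison only its groups entered a linear model in limma 3.58.1 (R 4.3.3) with empirical Bayes, and p-values were adjusted by the Benjamini-Hochberg method over all probe sets. The procedure was tested on simulated data, each set holding 100 probe sets changed 2-fold and 100 changed 4-fold. In the design of APAP against corn oil 87% of 2-fold changes were called, and in that of DCLF against water 79%. The adjustment is stricter where fewer probe sets change, and the real data called 43 higher and 22 lower under APAP and 0 under DCLF. These shares therefore do not give the power for a lone change in either comparison. Alternatives were another normalization, variance model, filter, probe set rule, fold threshold, all samples in 1 model, the methods' t-test (unadjusted p under 0.01, or adjusted) and leaving out each sample. The 10 genes and all lists were chosen with earlier results of these data known. All 10 genes were named, with at most 4 called genes per list and comparison by size of change, 2 per marker list, and the 5 genes most like Asns and Phgdh. Carbon tetrachloride and sequencing data were not analysed here.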

Additional observations from a re-analysis of the deposited data

Results flagged for a closer look

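In 8 cases a difference between the effects of 2 compounds was itself called by limma. APAP against DCLF, within 1 study, gave 2.89 ± 0.298 for Phgdh (adjusted p = 0.00333) and 2.33 ± 0.281 for Psat1 (adjusted p = 0.0125). APAP against ANIT gave 1.17 for Psat1, 1.52 for Asns, 0.82 for Atf5 and 1.61 for Trib3, and APAP against MDA gave 1.10 for Asns and 1.61 for Trib3; these 6 were tested after the values had been seen. Trib3, Atf5 and Psph had means above vehicle under APAP and below it under ANIT and MDA. The smallest of the changes, that of Atf5, combines a called decrease under ANIT with a value of 0.21 under APAP that was not called.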

How the results depend on the processing

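No paired analysis was possible because compound and vehicle rats were different animals and replicate numbers follow the order of the samples. Over 9 comparisons, 1590 values of single genes were computed under alternatives: 1450 kept their direction and their side of the threshold, 53 lost a call, 33 gained one, and 54 changed sign where no call was involved (at most 0.66 in size). The numbers of the 10 genes called moved by over 1.5 times as follows; the cause was not tested. Under the methods' t-test with adjusted p, 0 were called in any compound comparison or in APAP minus DCLF and APAP minus MDA, and 1 in APAP minus ANIT. At its unadjusted p, 1 was called higher under ANIT, 1 under MDA and 1 in APAP minus MDA. Quantile normalization gave 0 lower under ANIT (and 3 higher, with Phgdh), and no fold threshold gave 1 lower under MDA (Sesn2). Without the 3 arrays of low top signal, an alternative chosen after seeing the data, 0 were higher under ANIT, 1 was lower in ANIT minus MDA and 2 were higher in APAP minus ANIT. Leaving out single livers, counts ran from 1 to 2 higher and 0 to 2 lower under ANIT, 0 to 1 lower under MDA, 0 to 1 lower in ANIT minus MDA, 1 to 3 higher in APAP minus DCLF, 2 to 5 higher in APAP minus ANIT and 1 to 4 higher in APAP minus MDA. Smaller moves came with all 23 samples in 1 model, which added Phgdh under ANIT, Psat1 under MDA, Trib3 under APAP and Asns in APAP minus DCLF; the filter, the mean of probe sets and the trend with robust fit also added Phgdh under ANIT. Groups of 2 or 3 arrays limit all calls.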
